A study of Homo sapiens with 18 samples.

Results

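Intergenic windows near genes were examined in the ATAC-seq table of 6 human ovarian cancer cell lines. ATAC-seq reads open chromatin from the DNA that the Tn5 transposase can cut. A window is a stretch of 1000 bases of hg19 (GRCh37) whose level is given in FPKM, the fragments per kilobase of DNA scaled to the mapped reads of the library. The windows described here lie on chromosomes 1 to 22, have their centre outside every protein-coding gene of the GENCODE annotation, and lie 5 to 50 kb from the nearest start of such a gene. There were 10232 of them among the 89428 windows of the table (11.4%). No measured level entered the choice, but every window of the table exceeds 2 FPKM in at least 2 of the 18 libraries, so windows that are closed in all lines are not seen. Neighbouring windows share 100 bases and often belong to the same open site.

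A platinum-sensitive line and its resistant partner make up each of 3 pairs, with 3 libraries for each line, all grown in the same medium, and the labels name no drug in the culture. A2780 is labelled endometrial/ovarian, and CP70 is a platinum-resistant line derived from it in vitro. PEA1 and PEA2 are high-grade serous lines of 1 patient, before platinum and after relapse, and PEO1 and PEO4 are high-grade serous lines of another, both made after platinum but on either side of clinical resistance. Each condition is thus a single line in each pair, the libraries held 8972042 to 60495462 reads as recovered from the table, and the labels do not say whether replicates were separate cultures, so p-values measure the spread between libraries. Start windows of 8 of 8 serous epithelial marker genes were in the table, among them PAX8, at a mean of 0.61 FPKM in A2780 and 7.9 FPKM in PEO1. SOX17, of the same list, went the other way, at 0.896 FPKM in A2780 and 0.721 FPKM in PEO1. Of the marker genes of other cells, 0 of 5 for stroma, 0 of 3 for endothelium and 2 of 5 for leukocytes (CD14 and LCP1) had a start window in the table. In PEO1 CD14 was at 2.06 FPKM and LCP1 at 1.96 FPKM, above SOX17.

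Open chromatin outside genes holds enhancers, which loop to promoters and set the level of a gene in a cell type, and insulators, where CTCF binds and limits those loops. Enhancers differ between cell types far more than promoters do, because they are opened by the transcription factors a cell makes. AP-1, a dimer of FOS and JUN proteins, and the TEAD factors of the Hippo pathway are common at enhancers of epithelial cells and of cells in culture. The nearest gene names a window below, but an enhancer can act on a gene farther away, and no measurement of contact was used.

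Sequences are shown for 10 windows on which the results turn, each read from GRCh37 with 45 bases on either side of 1 match, so that a reader can see what lies in them. They were chosen after the values were seen. Capitals mark the match to the AP-1 letters TGANTCA in the first 8. N stands for any base, so TGAATCA (C18orf21) and TGATTCA (JARID2) count as matches, here and in every AP-1 share below. The letters TGANTCA occur in 46.2% of the intergenic windows and in 38.3% of all windows, so a match is a description and not a binding site. The first 2 windows were higher in PEA2 than in PEA1, the window near GTPBP4 was lower, the windows near JARID2 and CDON were higher in PEO4 than in PEO1, those near ALDH1A1 and BCHE were lower, and the one near RPL37A was lower in CP70 than in A2780.
C18orf21: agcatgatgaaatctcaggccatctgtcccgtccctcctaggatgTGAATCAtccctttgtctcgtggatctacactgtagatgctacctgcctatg
EGFR: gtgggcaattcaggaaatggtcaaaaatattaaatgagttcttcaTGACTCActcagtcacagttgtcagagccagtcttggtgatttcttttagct
GTPBP4: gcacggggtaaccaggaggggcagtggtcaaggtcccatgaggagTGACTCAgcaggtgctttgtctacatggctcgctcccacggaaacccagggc
JARID2: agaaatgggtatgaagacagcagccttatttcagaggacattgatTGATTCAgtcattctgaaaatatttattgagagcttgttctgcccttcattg
CDON: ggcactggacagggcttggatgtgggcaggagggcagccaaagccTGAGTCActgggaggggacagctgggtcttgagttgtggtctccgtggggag
ALDH1A1: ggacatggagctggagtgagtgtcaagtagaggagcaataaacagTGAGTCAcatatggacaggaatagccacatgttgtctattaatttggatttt
BCHE: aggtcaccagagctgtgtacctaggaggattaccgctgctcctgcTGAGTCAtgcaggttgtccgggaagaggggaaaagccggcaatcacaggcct
RPL37A: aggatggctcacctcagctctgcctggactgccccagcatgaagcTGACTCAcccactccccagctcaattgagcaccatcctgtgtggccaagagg

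The stretches lie at chr18:33514151-33514247, chr7:55053164-55053260, chr10:1020129-1020225, chr6:15228346-15228442, chr11:125979970-125980066, chr9:75715539-75715635, chr3:165592703-165592799 and chr2:217357901-217357997, on the plus strand and in the order printed. The ALDH1A1 window holds 4 matches, the EGFR window 2 and the others 1. The next sequence shows the CTCF letters AGGNGGCAG (either strand), at a window open in all lines near TMEM106A (chr17:41400642-41400740). The last shows the TEAD letters GGAATG downstream of SOX9 (chr17:70155842-70155937), where PEO4 stood apart. The CTCF letters occur in 16.2% of the intergenic windows and in 14.4% of all windows, and the TEAD letters in 49.5% and 45.8%.
TMEM106A: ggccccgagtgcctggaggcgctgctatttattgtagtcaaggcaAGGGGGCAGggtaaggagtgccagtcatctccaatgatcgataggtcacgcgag
SOX9: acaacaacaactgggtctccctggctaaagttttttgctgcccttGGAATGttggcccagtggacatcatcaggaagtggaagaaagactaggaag

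The intergenic windows had 4124 different nearest genes and a median distance of 22.4 kb to the nearest start, with quartiles of 12.6 and 34.4 kb. They lay upstream of that gene in 7356 cases (71.9%) and past its 3′ end in 2876. Of all, 2901 (28.4%) lay inside an annotated non-coding gene, and 13.5% lay within 1 kb of the start of one. They formed 6713 unbroken runs, 4101 of them of a single window. The longest, at chr1:17022601-17042500, held 22 windows between the unnamed genes AL021920.2 and AL137798.1. ARC, an immediate early gene of neurons, had 32 windows, ZNF467 30, ZNF862 24, TRIB1 21, DUSP5 19 and AMOTL2 18, whereas 1700 genes had 1.

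By base content these windows resembled windows deep inside genes more than promoters. Their median G+C was 49.3%, against 59.4% for windows within 1 kb of a protein-coding start, 48.1% for windows inside genes over 5 kb from a start, and 45.2% for intergenic windows at 50 to 500 kb. CpG-rich sequence (G+C above 50% and an observed to expected CpG ratio above 0.6) made up 9.39% of them and 63.9% of the start windows. The AP-1 letters were in 46.2% against 15.9% of the start windows, and the ETS letters CCGGAAGT in 1.39% against 6.54%. Letters for SOX factors (ACAATGG) were in 11.5% against 6.63%, and those for GATA factors (AGATAA) in 35.6% against 24.6%. HNF1 letters (GTTAATNAT) were in 2.75% and GRHL letters (AACCGGTT) in 0.342%, close to the 2.75% and 0.339% of all windows.

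Levels differed between lines more than between libraries of a line. The mean level over the 10232 windows was 0.781 ± 0.0568 FPKM (SD, n = 3) in A2780 and 1.02 ± 0.0836 in CP70. It was 1.34 ± 0.163 in PEA1 and 2.08 ± 0.207 in PEA2, and PEO1 and PEO4 had 3.23 ± 0.0774 and 2.57 ± 0.0658. The 3 libraries of PEO1 stood above those of every other line and the 3 of A2780 below. These values are scaled to all reads of the library, and the share of reads that fell in the table ran from 8.37% to 40.8% over the libraries, lowest in A2780 and highest in PEO1. As a share of the reads in the table the order was different. Intergenic windows took 11.2% ± 0.0632 in PEA2, against 9.02% ± 0.169 in PEA1, 8.66% ± 0.411 in A2780, 8.30% ± 0.0278 in PEO1, 8.03% ± 0.628 in CP70 and 7.64% ± 0.143 in PEO4, and the PEA2 libraries lay above those of all other lines. Start windows took 30.01% ± 0.433 in PEA2 and 39.4% to 46.8% on average in the other lines. Windows inside genes over 5 kb from a start took 29.6% in PEA2 and 21.2% to 25.2% in the others. Intergenic windows at 50 to 500 kb took 14.7% in PEA2 and 7.37% to 12.7% in the others, so the high PEA2 share was not particular to 5 to 50 kb. The median number of reads in an intergenic window was 9 (CP70 replicate 1) to 41 (PEA2 replicate 3).

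**Figure D1:**
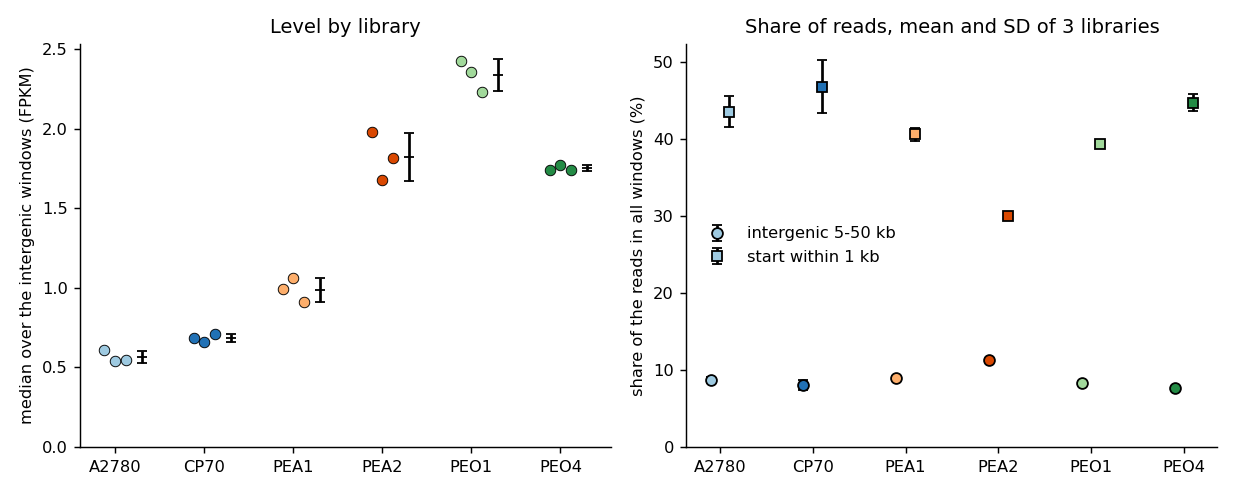
Left, median level of the 10232 intergenic windows at 5 to 50 kb in FPKM, a point for each of 3 libraries a line, with the mean and SD beside them; right, the share of the reads of all windows taken by these windows (circles) and by windows within 1 kb of a start (squares), mean and SD of 3 libraries. PEO1 had the highest median, 2.34 FPKM, but PEA2 had the highest share for intergenic windows and the lowest for starts.

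Few of the windows were open, taken as a line mean above 2 FPKM, in every line. The mean exceeded 2 FPKM in 1 line only for 4600 windows (44.96%), in 2 lines for 2453, in 3 for 1279, in 4 for 713, in 5 for 266 and in all 6 for 259 (2.53%). The remaining 662 reached it in no line's mean. The line was PEO1 in 1650 of the 4600, PEA2 in 1607, PEO4 in 770, PEA1 in 276, CP70 in 252 and A2780 in 45. The share of reads in the table was also highest in PEO1 and lowest in A2780, and its part in this order was not tested. The 259 windows open in all lines had a base content like that of promoters: 72.2% were CpG-rich against 9.39% of all the intergenic windows, their median G+C was 60.4%, 49.0% lay within 1 kb of the start of a non-coding gene, and 16.6% held the AP-1 letters. In the windows open in 1 line those values were 3.83%, 47.8%, 8.83% and 46.0%.

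That group is shown by the 4 windows in which the lowest of the 18 libraries was highest. Near TMEM106A (chr17:41400001-41401000, 36.6 kb downstream of its start), the level was 8.07 ± 1.72 FPKM in A2780 and 10.9 ± 1.53 in CP70, 8.76 ± 0.662 and 7.8 ± 1.33 in PEA1 and PEA2, and 7.1 ± 1.11 and 8.39 ± 1.1 in PEO1 and PEO4 (SD, n = 3), with no pair difference called. PRSS38 had a window at 6.53 ± 1.15 FPKM in A2780 and 14.1 ± 1.03 in PEO1, with the other lines between 6.62 and 10.1 FPKM. The window downstream of ERVMER34-1, an envelope gene left by an endogenous retrovirus, ran from 5.56 ± 1 in A2780 to 30.1 ± 2.31 FPKM in PEO1. ZNF692 had 6.32 ± 1.23 FPKM in PEA1 and 30.3 ± 2.27 in PEO1.

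Over the 18 libraries, 8228 of the intergenic windows had a mean above 1 FPKM. Across them the Spearman correlation between libraries of the same line averaged 0.85 in CP70 to 0.95 in PEO4. Between partners it averaged 0.80 in the A2780 pair, 0.58 in the PEO pair and 0.32 in the PEA pair, and the lowest value of any 2 lines was -0.04, for CP70 and PEO1. These are correlations across windows, which share libraries and depth. The range over the 6 line means had a median of 2.58 on the log2 scale and of 2.01 after centring each library on its median, against 2.16 and 1.62 for start windows. For windows inside genes over 5 kb from a start it was 2.74 and 2.12.

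The resistant and the sensitive line of each pair were then compared. Windows that averaged above 1 FPKM in a pair's 6 libraries were tested with limma on log2(FPKM + 0.1), over all windows of the table. A window was called if the absolute log2 fold change was above 2 and the p, adjusted by the Benjamini-Hochberg method, below 0.001. Fold changes on this scale understate the change of low windows. The fold threshold alone set the calls, because 296 of 296, 8374 of 8374 and 6594 of 6594 windows past it in the A2780, PEA and PEO pairs also passed the p threshold. limma pooled the spread over windows of like level, in full in the A2780 and PEA pairs (infinite prior degrees of freedom) and with 34.3 prior degrees of freedom in the PEO pair, so the very small adjusted p-values below owe little to the 3 libraries a line of the window itself. With the spread of each window alone, an alternative added after seeing the data with 4 residual degrees of freedom, an adjusted p below 0.05 was reached by 25 of the 46 intergenic windows called in the A2780 pair, 1222 of 1223 in the PEA pair and 784 of 795 in the PEO pair, and one below 0.001 by 0, 0 and 5. In all of the called windows the libraries of the 2 lines did not overlap, which over all tested windows was so in 59% for the A2780 pair, 66.3% for PEA and 69.3% for PEO.

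In the A2780 pair few intergenic windows passed the fold threshold. Only 3000 (29.3%) were high enough to test, 19 were higher (0.633%) and 27 lower (0.9%) in CP70, against 0.428% and 0.369% of all tested windows. Start windows had 0.184% higher and 0.0459% lower, and windows inside genes over 5 kb from a start 0.737% and 0.523%. The median log2 fold change was 0.51, against 0.59 over all windows, and 44.6% of the windows had an adjusted p below 0.05, against 49.7% of all windows. The number of higher calls depended on 1 library and on scaling. CP70 replicate 1 was the highest CP70 library in 19 of the 19 higher windows and in 60.5% of the windows not called, and without it 4 windows were called higher and 23 to 27 lower under any library left out. After median centring of the libraries 1 was higher and 33 lower, and after removing the median of each 5 Mb stretch of the genome 1 was higher and 30 lower.

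The 3 most strongly lowered windows fell to below 1 FPKM. Downstream of DUSP6, which codes for a phosphatase that switches off the kinase ERK, the window chr12:89710201-89711200 had 3.59, 4.48 and 3.04 FPKM in A2780 and 0.455, 0.419 and 0.0419 FPKM in CP70. The groups did not overlap, and the log2 fold change was -3.45 ± 0.28 SE, adjusted p = 3.25e-31 by limma. The other 4 lines were at 0.139 to 0.45 FPKM, so that the window was open in A2780 and in no other line. RPL37A, a gene of the large ribosomal subunit, had a window 5.85 kb upstream (chr2:217357201-217358200) at 5.32, 6.8 and 5.27 FPKM in A2780 and 0.53, 0.778 and 0.293 FPKM in CP70, a log2 change of -3.28 ± 0.25 SE, adjusted p = 6.70e-35 by limma. CP70 had the lowest level of the 6 lines here, with PEA1 and PEA2 at 1.57 and 1.31 FPKM and PEO1 and PEO4 at 4.9 and 4.66 FPKM. Near the zinc finger gene ZNF777 (chr7:149112001-149113000) the level fell from 3.06 ± 0.184 to 0.249 ± 0.172 FPKM, by 3.31 on the log2 scale. All 3 kept their call after centring and after removal of the 5 Mb median.

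Lower windows also came in groups. NDUFB4, a subunit of mitochondrial complex I, had 7 windows at 19.8 to 37.8 kb from its start, 4 of the 6 tested were lower, and the window chr3:120339901-120340900 went from 2.3 ± 0.592 to 0.307 ± 0.0702 FPKM (SD, n = 3). The homeobox gene DLX6 had 3 of 3 lower, and the window chr7:96641101-96642100 had 2.7, 3.76 and 2.83 FPKM in A2780 and 0.379, 0.479 and 0.335 in CP70, with no library of another line above 0.479 FPKM. The start windows of NDUFB4 and DLX6 were not called, at log2 fold changes of 0.54 (limma adjusted p = 0.0899) and 0.46 (limma adjusted p = 0.147). CCND2, a cyclin of the G1 phase, had 1 window, which fell from 2.2 ± 0.321 to 0.228 ± 0.0715 FPKM (log2 fold change -2.83 ± 0.34 SE, adjusted p = 2.98e-14 by limma).

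In 14 of the 19 windows higher in CP70 a PEA or PEO line had a mean at or above that of CP70. That was usual, as CP70 was the highest line in 4.44% of the intergenic windows averaging above 1 FPKM over the 18 libraries. Among all windows of the table above that level the share was 4.06%. The part of reads that fell in the table was 11.8% to 15.6% in CP70 and 32.8% to 40.8% in the PEO lines. Its effect on this count was not tested. Downstream of PARD6B, a gene of the cell polarity complex, the window chr20:49377601-49378600 had 0.506, 0.203 and 0.231 FPKM in A2780 and 4.39, 2.45 and 2.55 FPKM in CP70, a log2 fold change of 2.99 ± 0.29 SE, adjusted p = 8.40e-23 by limma, while the PEA and PEO lines had 2.57 to 8.14 FPKM. The window downstream of EMP1, an epithelial membrane protein (chr12:13375801-13376800), had 0.349, 0.293 and 0.38 FPKM in A2780 and 4.02, 1.92 and 2.01 in CP70. Its log2 fold change was 2.56 ± 0.29 SE, adjusted p = 5.07e-16 by limma, but 1.99 after centring and 1.84 after removal of the 5 Mb median, short of the threshold. ASPH, an enzyme that hydroxylates aspartate, had 3 higher windows of 4 tested, and chr8:62672401-62673400 went from 0.767, 0.744 and 0.661 to 6.97, 4.91 and 2.6 FPKM (log2 fold change 2.47 ± 0.25 SE, adjusted p = 1.24e-19 by limma, 1.90 after centring). In all 3 of these windows CP70 replicate 1 was above the other CP70 libraries, which themselves lay above every A2780 library.

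In the PEA pair many more windows were gained than lost. Of 7590 windows tested, 1139 were higher (15.01%) and 84 lower (1.11%) in PEA2, where 11.2% and 1.42% of all tested windows were. Start windows had 1.18% higher and 0.679% lower. Windows inside genes over 5 kb from a start were like the intergenic ones, with 15.2% higher and 2.29% lower. The median log2 fold change was 0.71, against 0.31 over all windows and -0.20 over start windows. With median centring 674 were higher and 152 lower, and with the 5 Mb median removed 384 were higher and 91 lower, so that higher calls stayed in the majority. Of the 1139 higher windows, 317 (27.8%) were still past a log2 fold change of 2 relative to their 5 Mb stretch and 1133 still had the same sign.

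**Figure D2:**
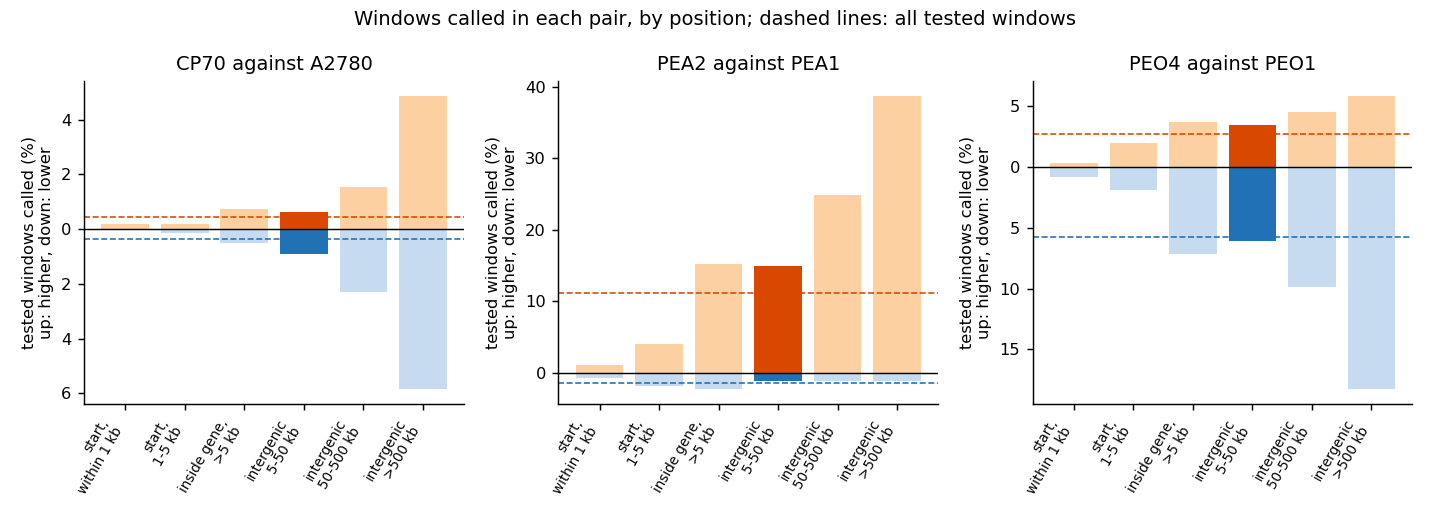
Share of tested windows called higher (up, orange) and lower (down, blue) in the resistant line of each pair, by position of the window, with intergenic windows at 5 to 50 kb in dark colour and dashed lines for all tested windows. The scales differ between panels. In PEA2 the share called higher was 15.01% at 5 to 50 kb, 1.18% within 1 kb of a start, 15.2% inside genes over 5 kb from a start and 24.9% at 50 to 500 kb.

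The share gained in PEA2 increased with distance from the start. It was 12.9% of tested windows at 5 to 10 kb, 13.7% at 10 to 20 kb, 15.4% at 20 to 30 kb, 16.0% at 30 to 40 kb and 17.9% at 40 to 50 kb. The share lost was 2.09% in the nearest group and 0.898% in the farthest. Windows upstream of the nearest gene were higher in 16.5% and windows past its 3′ end in 11.3%, and the upstream windows also had lower G+C (48.5% against 51.7%), whose part in this was not tested. The median level in PEA2 was about the same at all distances, 1.75 FPKM at 5 to 10 kb and 1.88 FPKM at 40 to 50 kb, whereas in A2780 it went from 0.657 to 0.506 FPKM and in PEA1 from 1.04 to 0.885 FPKM.

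C18orf21, an open reading frame on chromosome 18, lay nearest to the window with the largest log2 fold change of the intergenic windows in this pair. Upstream of it the window chr18:33513301-33514300 had 0.513, 0.28 and 0.24 FPKM in PEA1 and 12.6, 8.73 and 10.2 in PEA2, with no overlap and a log2 fold change of 4.61 ± 0.24 SE, adjusted p = 1.01e-80 by limma, and the change was 2.86 relative to its 5 Mb stretch. PEO1 was next, at 1.71 ± 0.563 FPKM (SD, n = 3), and the AP-1 match of this window is the first sequence above. The window downstream of PATE4 (chr11:125727301-125728300), chosen because it was particular to PEA2 and thus given with no test, had 0.513, 0.53 and 0.432 FPKM in PEA1 and 6.21, 4.16 and 5.55 in PEA2. No library of another line exceeded 0.548 FPKM there.

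The 3 most strongly lost windows were high in PEA1 alone or in PEA1 and the PEO lines. Upstream of GTPBP4, a GTPase of ribosome assembly, the window chr10:1019701-1020700 had 7.18, 7.66 and 6.19 FPKM in PEA1 and 0.33, 0.52 and 0.488 FPKM in PEA2, a log2 fold change of -3.72 ± 0.24 SE, adjusted p = 7.17e-52 by limma. The other 4 lines were at 0.469 to 0.66 FPKM, and the change was -2.33 relative to its stretch. The start window of GTPBP4 changed by -1.74 on the log2 scale. Near ZNF248 the window chr10:38154601-38155600 went from 3.09 ± 0.931 to 0.171 ± 0.0524 FPKM (log2 fold change -3.54), and near TOB1, which restrains cell division, the window chr17:48981601-48982600 went from 2.78 ± 0.485 to 0.196 ± 0.164 FPKM (log2 fold change -3.40, -2.30 relative to its stretch). PEO1 and PEO4 kept the TOB1 window at 2.18 and 1.93 FPKM.

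Gains in PEA2 were crowded in some stretches of the genome. In the 5 Mb at 25 to 30 Mb of chromosome 16, 28 of 40 tested windows were higher and 0 lower, at 140 to 145 Mb of chromosome 7 25 of 47, at 30 to 35 Mb of chromosome 18 19 of 24, and at 80 to 85 Mb of chromosome 6 19 of 23. On chromosome 16 the genes were KDM8, a gene of the Jumonji domain family, with 10 of 13 tested windows higher, and C16orf82 with 9 of 9. On chromosome 18 it was C18orf21 with 9 of 9. The start windows of KDM8, C16orf82 and C18orf21 rose too, by 1.97, 2.79 and 1.75 on the log2 scale. Differences between 5 Mb stretches held 45.5% of the variance of the intergenic windows' log2 fold changes in this pair, 53.3% in the A2780 pair and 36.5% in the PEO pair. These shares were not adjusted for the number of windows in a stretch, and fewer windows make them larger. With 7590, 3000 and 8329 windows tested, they cannot be compared between the pairs. The median change relative to the 5 Mb stretch was 0.32 for the windows of KDM8, 0.48 for C16orf82 and 0.94 for C18orf21, from 2.31, 2.47 and 2.68 before.

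In the PEO pair more intergenic windows were lost than gained as deposited. Of 8329 tested, 289 were higher (3.47%) and 506 lower (6.08%) in PEO4, against 2.72% and 5.78% of all tested windows. Start windows had 0.336% and 0.792%, and windows inside genes over 5 kb from a start 3.72% and 7.19%. The median log2 fold change was -0.44, against -0.30 over all windows. The balance turned with scaling: with median centring 418 were higher and 257 lower, and with the 5 Mb median removed 279 were higher and 175 lower. Of the 289 higher windows 289 kept their sign after centring and 212 (73.4%) were past 2 relative to their 5 Mb stretch, and of the 506 lower windows 506 kept their sign and 149 (29.4%) were past 2. By distance, 3.02% were higher and 5.97% lower at 5 to 10 kb, and 4.66% and 6.17% at 40 to 50 kb.

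As deposited, the largest change of this pair in size was a loss, near ALDH1A1. The gain near ZNF572, given below, was larger than this loss after centring (4.96 against -4.48). It was also larger relative to the 5 Mb stretches (4.45 against -4.12). Upstream of ALDH1A1, an enzyme that makes retinoic acid, the window chr9:75715201-75716200 had 5.97, 6.72 and 5.46 FPKM in PEO1 and 0, 0.24 and 0.199 FPKM in PEO4, a log2 fold change of -4.82 ± 0.35 SE, adjusted p = 1.23e-14 by limma. No library of the 4 lines outside the pair exceeded 0.769 FPKM. Upstream of CXCL8, the neutrophil-attracting chemokine IL-8, the window chr4:74563201-74564200 had 2.33, 2.01 and 2.23 FPKM in PEO1, whereas the PEO4 libraries held 0 to 1 reads each, at least 14.03-fold lower against a floor of 3 reads per library (limma adjusted p = 1.34e-09). The start window of CXCL8 fell with it, by 2.93 on the log2 scale. ZRANB2, a splicing regulator, had a window at 7.79, 7.07 and 6.8 FPKM in PEO1 and 0.349, 0.432 and 0.149 FPKM in PEO4 (chr1:71551801-71552800, log2 fold change -4.23).

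The 3 most strongly gained windows exceeded 2 FPKM in PEO4 alone. JARID2, a subunit that steers the Polycomb complex PRC2, had a window 17.8 kb upstream (chr6:15228001-15229000) where the PEO1 libraries held 0 to 3 reads each. PEO4 had 2.91, 3.65 and 3.34 FPKM, which is at least 10.995-fold higher (limma adjusted p = 3.63e-11). TMEM63B, a mechanically gated channel, had a window at 0.405, 0.262 and 0.334 FPKM in PEO1 and 8.89, 8.97 and 7.32 in PEO4 (chr6:44044201-44045200, log2 fold change 4.30 ± 0.23 SE, adjusted p = 3.06e-18 by limma). Near ZNF572 the window chr8:125968501-125969500 went from 0.413 ± 0.194 to 11.9 ± 1.07 FPKM (log2 fold change 4.62). The other 4 lines lay between 0.347 and 1.29 FPKM there.

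Grouped changes were also seen in this pair. The ARC neighbourhood, on chromosome 8 with 32 windows, had 11 higher and 0 lower, and the window chr8:143663401-143664400 went from 0.25 ± 0.228 to 2.45 ± 0.382 FPKM. The 5 Mb stretch that holds it, at 140 to 145 Mb, had 34 higher windows of 159, and the median of the ARC windows was 1.82 as deposited and 0.39 relative to the stretch. The ARC start window rose by 2.68 on the log2 scale, more than that median. CDON, a co-receptor of Hedgehog, had 6 of 7 higher with a median of 2.35, and of 2.10 relative to its stretch, while its start window changed by 0.28. The window chr11:125979301-125980300 of CDON had 1.42, 0.785 and 1.34 FPKM in PEO1 and 16.2, 16.3 and 16.1 FPKM in PEO4 (log2 fold change 3.71 ± 0.17 SE, adjusted p = 5.39e-20 by limma). BCHE, the butyrylcholinesterase gene, had 5 of 6 lower, with a median of -2.14 as deposited and -0.33 relative to its stretch.

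**Figure D3:**
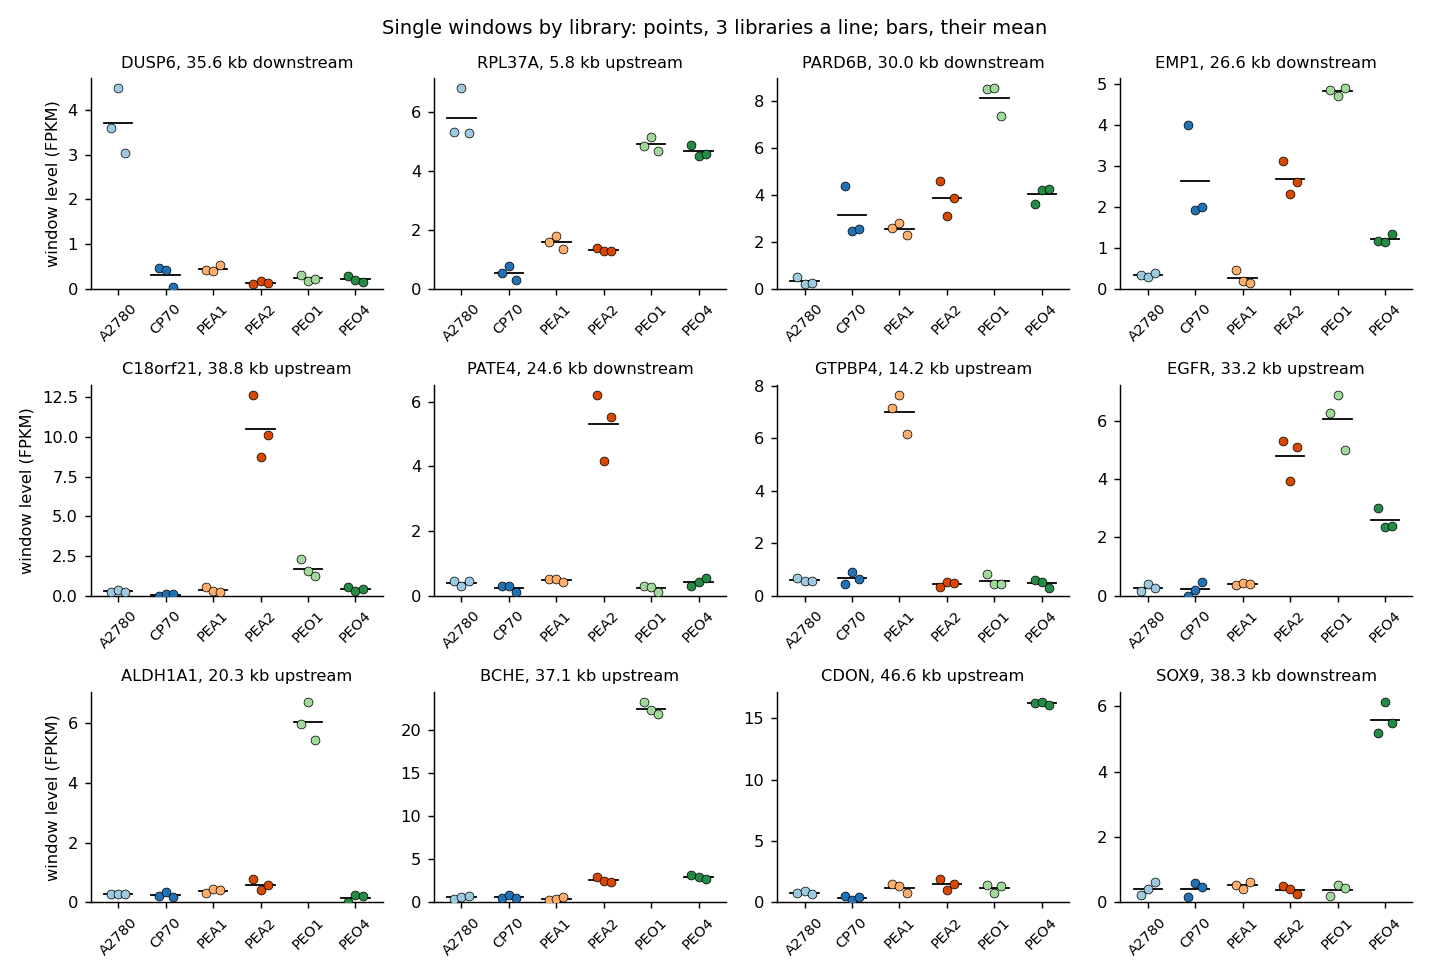
Level in FPKM of 12 single windows, named by the nearest gene with the distance and side of its start, in 3 libraries of each of 6 lines; points are libraries and bars their means, and each panel has its own linear axis from 0. With a mean above 2 FPKM taken as open, DUSP6 was open in A2780 only, C18orf21 and PATE4 in PEA2 only, GTPBP4 in PEA1 only, ALDH1A1 in PEO1 only, and CDON and SOX9 in PEO4 only, whereas RPL37A, PARD6B, EMP1, EGFR and BCHE differed within a pair and were open in a line of another pair too.

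The PEA and PEO pairs share no library, so their changes can be set side by side. Of the 5844 intergenic windows tested in both, 102 were called in both, which is 8.34% of the windows called in the PEA pair and 12.8% of those called in the PEO pair. Of these, 92 rose in PEA2 and fell in PEO4, 4 went the other way, 6 were higher in both and 0 lower in both, so 94.1% went opposite ways. Over all windows 798 were called in both, 9.53% of the PEA calls and 12.1% of the PEO calls, and 92.9% of them went opposite ways. Most calls were gains in the PEA pair (1139 of 1223) and losses in the PEO pair (506 of 795), which by itself favours this combination. Over the 5844 windows the 2 log2 fold changes had a Pearson correlation of -0.36 and a Spearman correlation of -0.39, as a description across windows with the base composition they share. The difference of the changes was itself tested over the 12 libraries: of 9197 windows, 2550 had a higher change in the PEA pair and 351 a lower one, 31.5% in all, where 26.6% of all windows did. These counts use the values as deposited, whose medians differ between the pairs by the amounts given above.

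**Figure D4:**
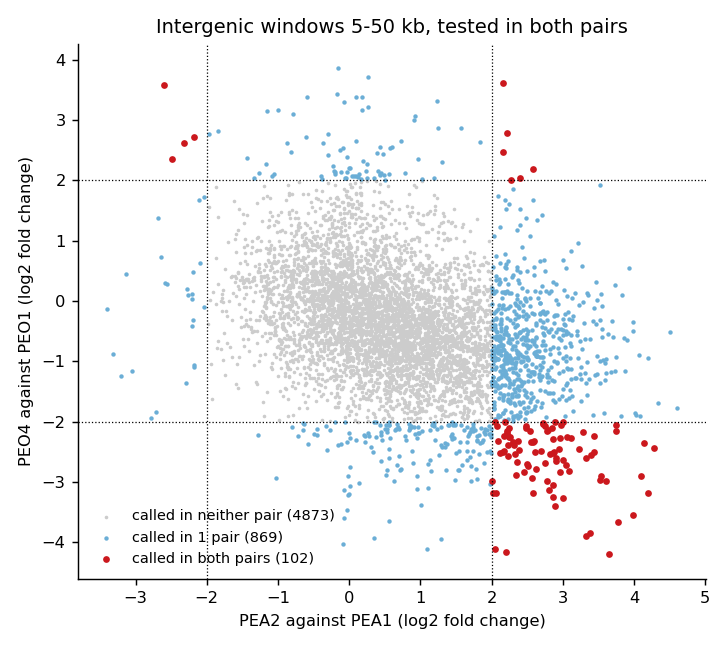
Log2 fold change of PEA2 against PEA1 (x axis) and of PEO4 against PEO1 (y axis) for the 5844 intergenic windows at 5 to 50 kb tested in both pairs, with red points called in both and dotted lines at the fold threshold. Of the 102 red points 92 lie at the lower right, higher in PEA2 and lower in PEO4.

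A window upstream of BCHE shows the opposite pattern in single values. At chr3:165591901-165592900 the level was 0.32, 0.405 and 0.575 FPKM in PEA1 and 2.97, 2.43 and 2.35 in PEA2, but 23.3, 22.3 and 21.8 in PEO1 and 3.2, 2.93 and 2.74 in PEO4. The log2 fold changes were 2.35 ± 0.27 SE, adjusted p = 1.13e-16 by limma and -2.89 ± 0.12 SE, adjusted p = 6.56e-21 by limma, and PEA2 and PEO4 ended at similar levels, 2.58 ± 0.336 and 2.95 ± 0.23 FPKM (SD, n = 3). Relative to the 5 Mb stretches the changes were 1.12 and -1.08. EHF, an ETS factor of epithelial cells, had a window 20.9 kb upstream (chr11:34621201-34622200) with 0.705, 0.498 and 0.479 FPKM in PEA1, 3.63, 2.49 and 2.53 in PEA2, 3.34, 2.97 and 3.12 in PEO1 and 0.814, 0.336 and 0.697 in PEO4. It rose by 2.17 and fell by 2.25 on the log2 scale, and the open lines of the pairs, PEA2 and PEO1, had like levels. Centring left the directions but brought both below the threshold, at 1.80 and -1.90.

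Changes shared in direction were rare. The 6 windows higher in both PEA2 and PEO4 were near CCDC195, TMEM252, TENT5A, MATN1, PRR18 and KCNK17. Near CCDC195, for example, the mean was 0.777 FPKM in PEA1 and 3.96 in PEA2, and 0.425 in PEO1 and 3.56 in PEO4, with no overlap between the libraries in either pair (SD 0.086 to 0.787, n = 3). The TENT5A window went from 0.971 to 4.69 FPKM in the PEA pair and from 0.871 to 5.26 FPKM in the PEO pair, but its PEA change was -0.00 relative to its 5 Mb stretch. A further 3 windows were higher in CP70 and in PEA2, the EMP1 window above and 2 near ASPH. At EMP1 the PEA change was 3.04, while the PEO change was -1.90, which was not called. Only 46 intergenic windows, of 3000 tested, were called in the A2780 pair, which limits any overlap with it. Of these 46, 0 were called in all 3 pairs.

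Each line was also compared with the mean of the other 5. Of 8228 windows tested, 3169 (38.5%) were called in at least 1 line, against 35.3% of all tested windows. The share called higher was close to that of all tested windows in most lines: 1744 in PEO1 (21.2%, against 20.8%), 779 in PEO4 (9.47%, against 10.4%), 70 in PEA1 (0.851%, against 0.711%), 16 in CP70 (0.194%, against 0.178%) and 6 in A2780 (0.0729%, against 0.0499%). PEA2 had 521, which is 6.33% against 4.41%. The balance changed with scaling. As deposited, PEO1 had 1744 higher and 65 lower, but 183 and 639 after centring; PEO4 had 779 and 44, then 179 and 298; A2780 had 6 and 820, then 90 and 23; CP70 had 16 and 822, then 140 and 151. PEA2 had more higher than lower calls both ways, 521 and 62 (0.754%, against 1.04%), then 360 (4.38%, against 3.11%) and 102 (1.24%, against 1.99%). After centring PEA2 was the highest line in 25.8% of the intergenic windows and in 4.92% of the start windows.

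The windows most particular to a line, by the ratio of its lowest library to the highest library elsewhere, are a description, and those that no other choice named are given with no test. For PEO1 the first was near MNX1, a homeobox gene (chr7:156839401-156840400), at 7.49, 9.68 and 9.03 FPKM against 0.374 to 0.556 in the means of the other lines. For PEO4 they were near CDON and near C2orf50 (chr2:11259901-11260900), the latter at 7.91, 8.01 and 8.07 FPKM against 0.485 to 0.624. PEA1 had the GTPBP4 window and 1 near RHOB, a stress-induced GTPase (chr2:20690101-20691100), at 6.79, 7.48 and 5.71 FPKM, and PEA2 had the PATE4 window given above. The windows of CP70 stood out by smaller ratios, near H2BC13 at 2.65, 2.04 and 2.09 FPKM and near OR2V2 at 3.79, 2.99 and 2.85 FPKM, where A2780 was next with 0.661 and 1.06 FPKM.

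Where the start of the nearest gene had a window of its own, its change was set beside that of the intergenic windows. In the PEA pair the start windows nearest to gained windows had a median log2 fold change of 0.53 (465 start windows, 32 of them called higher), those nearest to lost windows -0.61 (44, of which 4 called lower) and those nearest to windows not called -0.13. In the PEO pair the medians were 0.28 for gained (125), -0.64 for lost (236, of which 20 called lower) and -0.10 for not called. In these pairs the start medians thus had the same sign, but were smaller in size than those of the intergenic windows, which were 2.47 and -2.47 in the PEA pair and 2.48 and -2.36 in the PEO pair. With the 5 Mb median removed the start medians were -0.41 for gained, -0.43 for lost and -0.40 for not called in the PEA pair, and 0.14, 0.13 and 0.14 in the PEO pair, so that the medians of the groups lay close together. The A2780 pair did not follow this order. Its start windows had a median of 0.78 beside the windows higher in CP70 (10 start windows), 0.14 beside the lower ones (11), which themselves had a median of -2.50, and 0.55 beside those not called, and with the 5 Mb median removed 0.08, -0.34 and -0.01.

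The letters in the windows differed with the direction of change. The AP-1 letters were in 59.4% of the windows higher in PEA2, 43.1% of those not called and 31.0% of the 84 lower ones. In the PEO pair they were in 63.8% of the windows lower in PEO4, 47.5% of those not called and 32.9% of the 289 higher ones. In the A2780 pair they were in 57.9% of the 19 windows higher in CP70, 25.9% of the 27 lower and 24.1% of those not called. G+C moved with these groups, with medians of 45.7% in windows higher in PEA2 and 44.3% in those lower in PEO4, against 51.5% and 49.5% in windows not called. Among windows of 40% to under 50% G+C the AP-1 share was 62.4% in the 679 higher in PEA2 and 56.2% in the 2435 not called, 64.3% in the 300 lower in PEO4 and 57.8% in the 3205 not called, and 32.7% in the 113 higher in PEO4. Within this range the gaps between windows higher in PEA2 or lower in PEO4 and those not called were smaller than over all windows. The gaps of windows higher in PEO4 and of windows lower in PEA2 (30.8% of 39) were larger. In the A2780 pair the shares in this range were 66.7% of the 15 higher windows, 31.6% of the 19 lower and 31.2% of those not called.

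**Figure D5:**
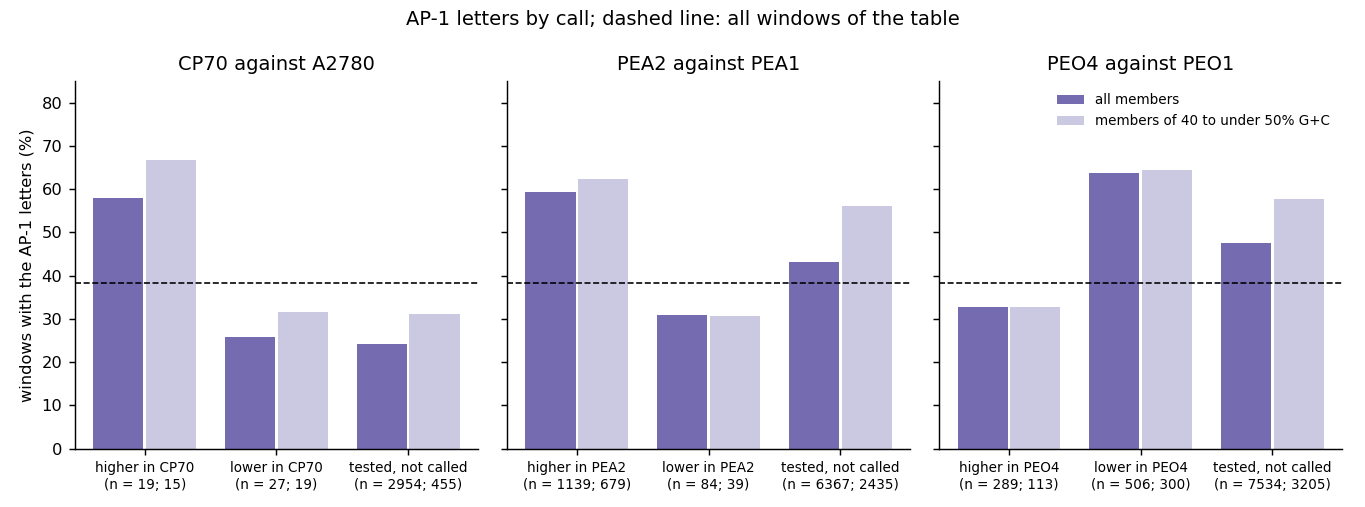
Share of intergenic windows that hold the AP-1 letters, by pair and call, for all windows of the group (dark) and for those of 40 to under 50% G+C (light), with the number of windows of each under the bars and a dashed line at the 38.3% of all windows of the table. The share of windows lower in PEO4 was 63.8% over all G+C and 64.3% at 40 to under 50%, and the shares of windows higher in PEO4 were 32.9% and 32.7%.

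Other letters differed with the call too. The GATA letters were in 51.9% of the 27 windows lower in CP70 and 47.4% of the 19 higher, against 22.2% of those not called, whose median G+C was 58.2% against 45.2% and 42.4%. The CTCF letters were in 9.09% of the windows lower in PEO4 and 15.9% of both the higher windows and those not called, and in 13.7% of those higher in PEA2 and 18.1% of those not called. At 40% to under 50% G+C the shares in the PEO pair were 9.0% of lower windows, 11.7% of those not called and 12.4% of higher ones. In the PEA pair they were 11.9% of higher windows, 12.8% of those not called and 5.13% of the 39 lower ones. The gap between windows higher in PEA2 and those not called was thus smaller than over all G+C. The SOX letters were in 22.6% of the 84 windows lower in PEA2, 15.1% of the higher and 9.93% of those not called, and the GATA letters in 48.0% of the windows lower in PEO4 and 35.3% of those not called. Windows within 1 kb of a non-coding start were 8.69% of those higher in PEA2 and 16.6% of those not called.

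Gene lists were then read for the windows nearest to their genes, and their counts stand against the 15.01% higher and 1.11% lower of the intergenic windows in PEA2 and the 3.47% and 6.08% in PEO4 (11.2%, 1.42%, 2.72% and 5.78% of all windows), with median changes of 0.71 and -0.44. In the A2780 pair 0 to 18 windows per list were tested and 1 was called, the CCND2 window above, by limma and by edgeR. Of 12 genes that the study names, 4 had intergenic windows, 18 in all. In the PEA pair 0 of the 6 tested were called by limma or edgeR, with 5 upward at an unadjusted p below 0.05, and in the PEO pair 2 of 17 were higher and 2 lower. The 2 higher windows lay 37.4 and 38.3 kb downstream of SOX9, a transcription factor of progenitor cells. At chr17:70155001-70156000 the level was 0.202, 0.524 and 0.446 FPKM in PEO1 and 5.17, 6.14 and 5.48 FPKM in PEO4, and no library of the other lines exceeded 0.623 FPKM. The log2 fold change was 3.60 ± 0.26 SE, adjusted p = 1.93e-14 by limma, whereas the start window of SOX9 changed by 0.19 (limma adjusted p = 0.101). The 2 lower windows, both near EREG, a ligand of the EGF receptor, went from 2.55 ± 0.325 to 0.4 ± 0.205 FPKM in the first, and relative to their 5 Mb stretch they changed by -0.94 and -0.65.

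Of Müllerian and serous genes, 10 of 16 had 32 windows. In the PEO pair 29 were tested, 2 were higher and 3 lower, with a median of -0.07, and in the PEA pair 0 of 17 were called by limma or edgeR, with 8 upward and 1 downward at an unadjusted p below 0.05. Both higher windows lay downstream of EMX2, a homeobox gene of the reproductive tract, and chr10:119313001-119314000 had 0.506, 0.611 and 0.557 FPKM in PEO1 and 5.76, 5.09 and 4.58 in PEO4 (log2 fold change 2.99 ± 0.23 SE, adjusted p = 5.90e-14 by limma). The start window of EMX2 rose with it, by 2.16 on the log2 scale. Among the lower windows were those near MECOM (13.9 ± 1.22 to 3.09 ± 0.494 FPKM), an oncogenic zinc finger factor, and PAX8 (log2 fold change -2.13). The MECOM change was -0.33 relative to its stretch.

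Epithelial genes (10 of 22 with 45 windows) had 4 of 26 tested windows higher in PEA2 (15.4%) and 0 lower, with a median of 0.70, and 1 of 44 higher (2.27%) and 4 lower (9.09%) in PEO4, with a median of -0.27. The PEA2 share and median were close to those of the intergenic windows. The PEA2 gains were 2 near ST14, a membrane protease, 1 near EHF and 1 near ESRP1, an epithelial splicing factor. At ST14 the window chr11:130015801-130016800 went from 1.13 ± 0.141 to 6.32 ± 0.821 FPKM (log2 fold change 2.39, 0.80 relative to its stretch) and was higher still in PEO1 and PEO4, at 14.9 and 18.2 FPKM. Mesenchymal genes (11 of 18 with 32 windows) had 4 of 29 higher (13.8%) and 2 lower (6.90%) in PEA2, with a median of 0.30, and 0 of 18 called in the PEO pair by limma or edgeR, with 4 upward and 8 downward at an unadjusted p below 0.05. The lower ones lay downstream of VIM, the intermediate filament of mesenchymal cells, where chr10:17280001-17281000 had 3.97, 5.42 and 3.12 FPKM in PEA1 and 0.769, 0.289 and 0.532 in PEA2 (log2 fold change -2.80 ± 0.25 SE, adjusted p = 1.02e-27 by limma), the change was -1.28 relative to its stretch, and the VIM start window fell by 2.58. The higher ones were 2 near FN1, 1 near SPARC and 1 near TGFBI, genes of the extracellular matrix, and at FN1 chr2:216329401-216330400 went from 0.237 ± 0.15 to 2.39 ± 0.196 FPKM. The share higher did not exceed that of the intergenic windows.

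AP-1 and TEAD factors and targets (11 of 22 names with 62 windows) had 7 of 50 higher in PEA2 (14%) and 0 lower, with a median of 1.17, and 5 of 56 higher in PEO4 (8.93%) and 0 lower, with a median of -0.36. At a limma adjusted p below 0.05 with no fold threshold, 29 of the 50 were higher and 5 lower in PEA2. In PEO4 13 of the 56 were higher and 26 lower. The PEA2 share was near that of the intergenic windows. AMOTL2, a target of the TEAD factors, had 5 of 18 windows higher in PEA2, and at chr3:134100001-134101000 the level was 0.32, 0.841 and 0.575 FPKM in PEA1 and 4.73, 3.12 and 3.9 in PEA2 (log2 fold change 2.62, 1.26 relative to its stretch). In PEO4 the gains were 3 of 11 windows near FOS and 2 of 3 near CCN2. Downstream of FOS chr14:75765601-75766600 had 0.809, 0.349 and 0.111 FPKM in PEO1 and 3.72, 5.42 and 4.83 in PEO4 (log2 fold change 3.41 ± 0.33 SE, adjusted p = 2.17e-11 by limma), and the start window of FOS changed by 0.45. CCN2, a matrix protein gene driven by YAP and TEAD, had a window going from 0.384 ± 0.151 to 2.52 ± 0.437 FPKM, with the means of the other 4 lines at 0.148 to 0.203 FPKM.

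Genes of platinum transport, detoxification and repair had few such windows, 10 near 8 of 34 genes. In the PEA pair 1 of 9 was higher, near FANCC, a gene of the Fanconi anaemia pathway, from 0.349 ± 0.0524 to 2.09 ± 0.545 FPKM (log2 fold change 2.26 ± 0.30 SE, adjusted p = 2.58e-13 by limma), and in the PEO pair 0 of 8 were called by limma or edgeR, with 1 upward and 2 downward at an unadjusted p below 0.05. Cell cycle and growth genes (8 of 12 with 27 windows) had 4 of 24 higher in PEA2 (16.7%), with a median of 1.38, and 1 of 21 lower in PEO4 (4.76%), near KITLG, both near the shares of the intergenic windows. Of the 4, 3 were near CCNE1, cyclin E1, and 1 near EGFR, the EGF receptor. At chr7:55053001-55054000, 33.2 kb upstream of EGFR, the level was 0.352, 0.436 and 0.384 FPKM in PEA1 and 5.33, 3.93 and 5.1 FPKM in PEA2 (log2 fold change 3.31 ± 0.25 SE, adjusted p = 1.07e-37 by limma), and 6.06 ± 0.956 in PEO1 and 2.59 ± 0.377 in PEO4. The start window of EGFR changed by -0.05. At CCNE1 chr19:30325501-30326500 went from 0.413 ± 0.141 to 3.19 ± 0.99 FPKM, and its start window changed by -0.29.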

How the data were processed

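ATAC-seq was read in 18 libraries of 6 lines. Per the study's methods, the authors aligned reads uniquely to hg19 with Bowtie2, removed duplicates with Picard, counted reads in 1 kb windows with featureCounts and computed deposited FPKM values in edgeR. Each window being 1 kb long, the FPKM values that the authors deposited equal RPM of the library. Versions are not given in the sources used here. Here, windows were placed on GRCh37 (23 of 23 chromosome steps fitted) and classed by 20176 protein-coding genes (GENCODE 44). In each library 100% of the deposited FPKM values were whole multiples, within 0.01, of the smallest step between values, which was taken as 1 read, and edgeR was run on these reads as an alternative. Over the whole table it called 216 gains with 153 losses for CP70, 8612 with 1165 for PEA2 and 2300 with 5224 for PEO4. The members and lists were chosen with earlier results of these data known. The deposited FPKM table was tested with limma 3.58.1 (R 4.3.3, edgeR 4.0.16) on log2(FPKM + 0.1) for windows with a mean above 1 FPKM, p-values being adjusted over all of them, and the code was tested on simulated data. The 6 lines were compared in 1 fit, each line against the mean of the other 5, and the PEA and PEO changes in 1 fit of 12 libraries.

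Windows were named by rule: the 3 largest called changes each way in each pair, the 2 most line-specific windows of each line, 4 windows open in all lines, the windows of the genes with most calls, those called the same way in 2 pairs and up to 4 called windows of each gene list. A few windows that the rule names are not reported here. Single windows beyond these, and the genes of counts of 5 or fewer, were chosen after their values were seen. Replicate numbers did not pair the libraries: same-numbered libraries of a pair had deviations correlated at -0.158 to 0.064. Between libraries of a line the chi-square per window was 1.05 to 1.81 and no 2 libraries held identical values. Alternatives were the pseudocount, the filter, the thresholds, centring, removal of 5 Mb medians, a G+C correction, edgeR, an annotation with all genes, a replicate block and leaving out each library.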

Additional observations from a re-analysis of the deposited data

Results flagged for a closer look

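Of 58 windows named by rule, leaving out the 6 named only for being particular to 1 line, 31 changed differently in PEA2 against PEA1 and in PEO4 against PEO1 by a test of the difference itself (limma over the 12 libraries of both pairs, adjusted p below 0.001 and a difference above 2 on the log2 scale), with the change in the PEA pair higher at 19 and lower at 12. Values below are the log2 fold change of PEA2 against PEA1 minus that of PEO4 against PEO1, each at the window whose first base is given. Many of these windows were named because they changed in 1 of the pairs, so a difference between the pairs was likely from the choice. Groups of 3 libraries are too small for a test of single libraries.

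Among the windows given here the difference was largest near C18orf21 (chr18:33513301), 6.39, ZRANB2 (chr1:71551801), 5.98, ALDH1A1 (chr9:75715201), 5.26, BCHE (chr3:165591901), 5.24, CXCL8 (chr4:74563201), 5.03, EMP1 (chr12:13375801), 4.94 and EGFR (chr7:55053001), 4.50. It was next largest near EHF (chr11:34621201), 4.41, EHF (chr11:34620301), 4.26, KDM8 (chr16:27185401), 3.92, C16orf82 (chr16:27095401), 3.37, AMOTL2 (chr3:134100001), 3.37, CCNE1 (chr19:30321901), 3.05 and MECOM (chr3:169386301), 2.78. Smaller differences of the same sign were found near CCNE1 (chr19:30325501), 2.78, ASPH (chr8:62672401), 2.63, ST14 (chr11:130015801), 2.10, ASPH (chr8:62673301), 2.06 and ZNF692 (chr1:249167701), 2.06. The change was lower in the PEA pair near FOS (chr14:75765601), -2.41, VIM (chr10:17280901), -2.67, VIM (chr10:17280001), -2.86, FOS (chr14:75764701), -2.95, ARC (chr8:143663401), -3.00 and TOB1 (chr17:48981601), -3.27. It was lower by more than this near CDON (chr11:125979301), -3.44, GTPBP4 (chr10:1019701), -3.50, ZNF572 (chr8:125968501), -3.72, SOX9 (chr17:70155001), -3.97, JARID2 (chr6:15228001), -4.50 and TMEM63B (chr6:44044201), -4.88.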

How the results depend on the processing

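Counts of intergenic windows called are given in the order higher and lower in CP70, higher and lower in PEA2, higher and lower in PEO4 (as reported 19, 27, 1139, 84, 289 and 506), and then in 1 line against the other 5 (3169). With a log2 fold change over 1 and an adjusted p below 0.05 the 6 pair counts were 346, 65, 3086, 472, 889 and 2264. A pseudocount of 0.5 gave 2, 7, 384, 23, 105, 173 and 1360, and a mean above 2 FPKM gave 2, 9, 428, 22, 103, 261 and 1403. Median centring gave 1, 33, 674, 152, 418, 257 and 1711, and removal of the 5 Mb median 1, 30, 384, 91, 279 and 175. With the spread of each window alone, added after seeing the data, 0, 0, 0, 0, 2 and 3 were called, since the p threshold is then hard to reach with 4 residual degrees of freedom. Against all annotated genes the count lower in PEO4 was 874, among more windows. edgeR on recovered reads called 28, 29, 1349, 107, 309 and 601, and a G+C correction 28, 25, 820, 110, 279 and 397. Without a filter on low values 4420 windows were called in 1 line.

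Leaving out 1 library at a time gave 4 to 26, 23 to 27, 907 to 1249, 62 to 106, 250 to 297, 471 to 553 and 2993 to 3324, and the value of 4 was without CP70 replicate 1. The replicate block changed no count (19, 27, 1139, 84, 289, 506 and 3169), which follows from calls set by the fold alone, and the numbers do not pair the libraries. Of the 16 windows given here among those with the largest changes, 0 reversed under any setting; EMP1 fell short at a pseudocount of 0.5 (1.84), with centring (1.99) and with the 5 Mb median removed (1.84), ASPH with the latter 2 (1.90 and 1.87), and all 16 missed the p threshold with the spread of each window alone. Other causes were not tested.

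Depth limits low windows most in CP70 replicate 1, with a median of 9 reads, and 0 to 3 reads in a window cannot be told from none. With 3 libraries a line and 1 line per condition, differences between lines cannot be told apart from resistance.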
